A study of Mus musculus with 32 samples.

Results

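The genes described here are 10 markers of macrophage identity and macrophage state: Lyz2, Cd68, Adgre1, Csf1r, Itgam, Tyrobp, Mrc1, Cd163, Trem2 and Gpnmb. They were taken by gene name from tables of RNA-seq expression in mouse quadriceps muscle. They correspond to 11 of the 53801 gene IDs listed, because Itgam stands under a pair of IDs. The study sequenced RNA from 32 mice, with 4 mice in each of 8 groups formed by genotype (WT or Col6a2-/-), age (5 or 25 weeks) and sex. Col6a2-/- mice are homozygous for a KOMP knockout allele (tm1) of Col6a2, made in C57BL/6N and crossed for 5 generations to C57BL/6J. WT controls came from the same heterozygous breeders. The allele is constitutive, and the labels name no treatment. Each library was made from cryosections of whole snap-frozen muscle, so that all cell types of the tissue contributed RNA.

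Macrophages are phagocytes that live in muscle between the fibres, where they clear debris, and they are joined after injury by cells that arise from blood monocytes. Their survival depends on the receptor CSF1R. Mrc1 (the mannose receptor CD206) and Cd163 (the scavenger receptor for haemoglobin) are widely used as markers of resident and repair-associated macrophages. Trem2 (a lipid-sensing receptor that signals through the adaptor Tyrobp) and Gpnmb (a lysosomal and cell-surface glycoprotein) are widely used as markers of lipid-handling macrophages in damaged tissue. Collagen VI is a matrix protein made in muscle mainly by fibroblasts, and loss of it causes a muscular dystrophy.

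Expression is given as TPM (a transcript share scaled for gene length and library), so levels can be compared between genes, and between libraries as shares of all transcripts. Col6a2 itself was between 6.60 and 51.2 TPM in all 16 WT libraries and between 0 and 0.171 TPM in all 16 Col6a2-/- libraries, which matches the labels. The 8 skeletal muscle fibre genes checked (among them Ckm and Tnnt3) summed to between 21944 and 38547 TPM in the 5-week libraries, which matches the labelled tissue. The ratio of deposited coverage to deposited FPKM, a relative measure of depth, ran from 6.776 to 13.69 over the 32 libraries, and the tables give no read totals. Of all gene IDs, 12817 reached at least 1 TPM in at least 4 libraries and were tested.

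Promoter sequences are shown for the pair of damage-linked genes and the pair of resident genes, since the contrast between these pairs is the question put to the data. Each runs from 250 bases before the annotated transcription start through the first 25 transcribed bases, 5′ to 3′ on the strand of the gene, from RefSeq on GRCm38.p6. Trem2 is at chr17:48346151-48346425 (plus strand), Gpnmb at chr6:49036268-49036542 (plus strand), Mrc1 at chr2:14229164-14229438 (plus strand) and Cd163 at chr6:124304401-124304675 (plus strand). Capitals mark matches on either strand to GAGGAA (a PU-box, the core bound by the myeloid factor PU.1, which reads TTCCTC on the opposite strand), TGACTCA (an AP-1 site, which reads TGAGTCA on the opposite strand) and CATGTG (an E-box of the kind found in targets of MITF and TFE factors, which reads CACATG on the opposite strand).
Trem2: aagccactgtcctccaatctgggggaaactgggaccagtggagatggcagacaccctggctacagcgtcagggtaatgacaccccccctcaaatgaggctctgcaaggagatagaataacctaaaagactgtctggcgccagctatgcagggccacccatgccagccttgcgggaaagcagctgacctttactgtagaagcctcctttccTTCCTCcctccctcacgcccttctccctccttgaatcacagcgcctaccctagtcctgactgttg
Gpnmb: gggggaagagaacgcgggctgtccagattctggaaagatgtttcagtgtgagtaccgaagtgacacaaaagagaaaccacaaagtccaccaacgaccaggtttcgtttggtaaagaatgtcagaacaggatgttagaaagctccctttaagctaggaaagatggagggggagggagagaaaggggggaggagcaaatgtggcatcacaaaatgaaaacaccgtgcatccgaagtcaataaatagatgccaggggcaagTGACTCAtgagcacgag
Mrc1: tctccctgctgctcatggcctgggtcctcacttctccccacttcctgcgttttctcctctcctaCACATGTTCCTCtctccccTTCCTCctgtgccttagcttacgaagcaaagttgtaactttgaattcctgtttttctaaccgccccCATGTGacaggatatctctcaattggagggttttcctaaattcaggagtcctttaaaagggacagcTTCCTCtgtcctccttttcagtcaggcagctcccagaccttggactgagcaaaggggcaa
Cd163: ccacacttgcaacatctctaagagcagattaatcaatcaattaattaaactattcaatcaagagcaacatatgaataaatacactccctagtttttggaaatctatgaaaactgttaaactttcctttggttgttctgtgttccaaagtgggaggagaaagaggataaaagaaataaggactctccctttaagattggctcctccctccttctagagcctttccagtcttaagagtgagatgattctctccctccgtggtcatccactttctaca

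The Trem2 window held 1 PU-box and the Mrc1 window held 3, all on the opposite strand. In the Mrc1 window, 1 of these directly follows the first of its 2 E-boxes, without overlap, so both are printed in 1 run of capitals. The Gpnmb window held 1 AP-1 site, which begins at transcribed base 9 (the start is base 1), and the Cd163 window held none of the 3 motifs. Among 32841 promoter windows of the same length, 25.5% held a PU-box, 4.87% an AP-1 site and 13.3% this E-box. These matches are descriptions of letters in a window and say nothing of binding in muscle. RefSeq windows matched for 7 of the 10 genes.

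At 5 weeks, the expression of the macrophage genes was higher in Col6a2-/- than in WT muscle, and apart from Trem2 the difference ranged from 4.13-fold for Lyz2 to 1.49-fold for Mrc1 between group means (n = 8 mice per genotype, both sexes). Trem2, listed at 0 in 1 WT library of that age, had medians of 0.0962 TPM in WT and 1.13 TPM in Col6a2-/- muscle. All 10 tested gene IDs rose by limma at an adjusted p under 0.05, where 23.2% of all tested genes were called higher (25.4% were called in either direction). Trem2 passed the filter on low values only through 5 Col6a2-/- libraries of this age, so its presence in that count was fixed by the filter, and 9 of 9 remain without it. The median log2 change of the 10 was 0.99, against 0.15 for all tested genes. In whole muscle, more macrophages and more of these transcripts per macrophage cannot be told apart.

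Lyz2, which encodes the lysozyme of macrophages and other myeloid cells, was the most abundant of the 10 (ENSMUSG00000069516, chromosome 10, 117277331 to 117282321 on GRCm38). At 5 weeks the Col6a2-/- females were at 135, 202, 111 and 61.7 TPM and the Col6a2-/- males at 204, 160, 146 and 140 TPM. The WT libraries of that age ran from 26.4 to 48.2 TPM, with a median of 30.5 TPM. Every Col6a2-/- library stood above every WT library, which held for 1.18% of all tested genes. The log2 change was 1.97 (SE 0.186, limma adjusted p = 1.17e-08).

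At 25 weeks Lyz2 ran from 66.1 to 130 TPM in Col6a2-/- muscle (median 80.3 TPM) and from 22.7 to 68.7 TPM in WT muscle (median 35.5 TPM). The WT libraries overlapped the Col6a2-/- range only through 1 female. Lyz2 rose there too, by 1.19 on the log2 scale (SE 0.186, limma adjusted p = 0.000445). Lyz1, a near-identical neighbour whose reads the counting could share with Lyz2, ran from 9.89 to 29.2 TPM in 5-week Col6a2-/- muscle and from 2.63 to 5.75 TPM in 5-week WT muscle, so its level was well below that of Lyz2.

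**Figure D1:**
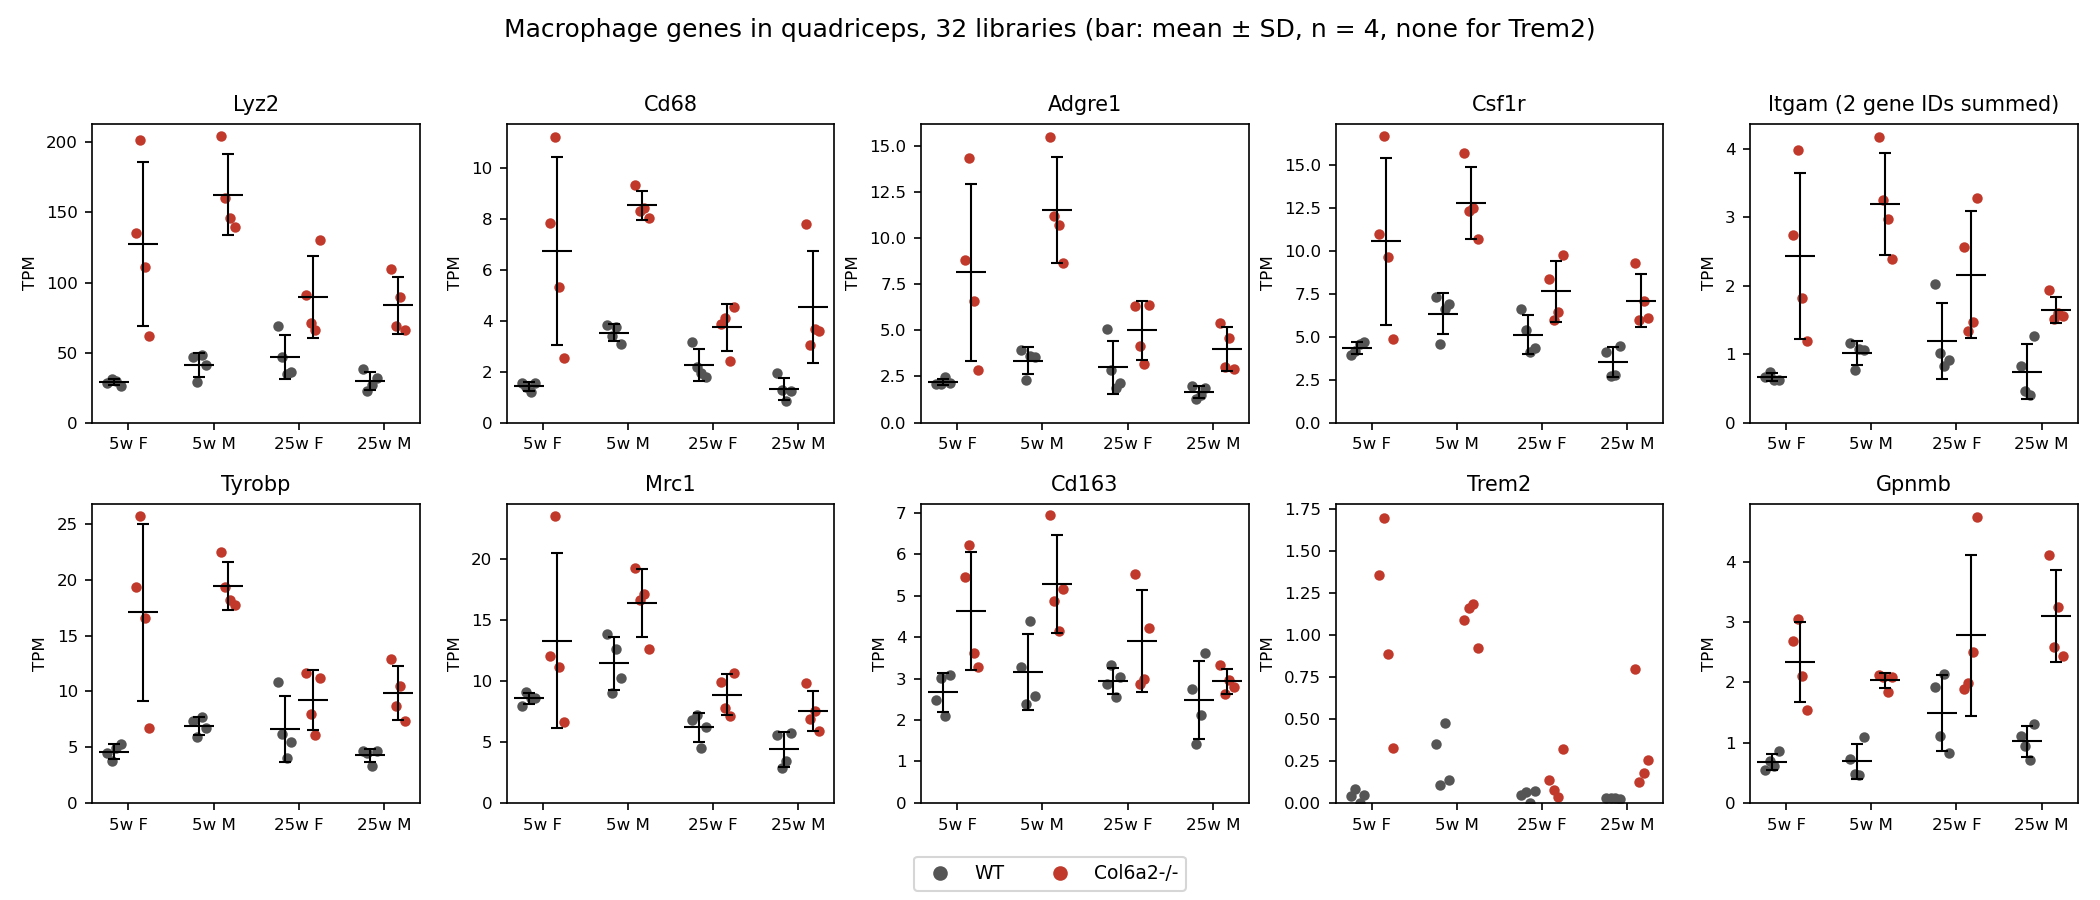
TPM of the 10 macrophage genes in each library (points) by group, WT in grey and Col6a2-/- in red, with the mean and SD of 4 mice (no bar for Trem2, which is listed at 0 in some libraries; Itgam is the sum of its 2 gene IDs). Lyz2, Gpnmb and summed Itgam separate the genotypes completely at 5 weeks, and in the 5-week Col6a2-/- females Lyz2 ranges from 61.7 to 202 TPM.

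The other pan-macrophage genes followed. Csf1r encodes the receptor for colony-stimulating factor 1 and interleukin-34 (ENSMUSG00000024621, chromosome 18, 61105572 to 61132149). It was at 5.35 ± 1.35 TPM in WT and 11.7 ± 3.68 TPM in Col6a2-/- muscle at 5 weeks (SD, n = 8), with a log2 change of 0.96 (SE 0.155, limma adjusted p = 4.44e-05). Adgre1 encodes F4/80, the classic surface antigen of mouse macrophages (ENSMUSG00000004730, chromosome 17, 57358686 to 57483529). It was at 2.78 ± 0.785 TPM in WT and 9.82 ± 4.08 TPM in Col6a2-/- muscle, with a log2 change of 1.43 (SE 0.196, limma adjusted p = 4.97e-06). Their groups overlapped only through 1 Col6a2-/- female, replicate 4, which was at 4.88 TPM of Csf1r and 2.84 TPM of Adgre1. Csf1r overlaps Hmgxb3 on the opposite strand, which reached at most 3.46 TPM, only at its end, and without a stated use of strand reads from the shared stretch cannot be told apart.

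Cd68, a lysosomal glycoprotein of phagocytes (ENSMUSG00000018774, chromosome 11, 69664213 to 69666153), was at 2.48 ± 1.15 TPM in WT and 7.63 ± 2.63 TPM in Col6a2-/- muscle at 5 weeks (SD, n = 8). Its log2 change was 1.30 (SE 0.173, limma adjusted p = 3.11e-06). Among the 5-week WT mice the 4 females were between 1.20 and 1.56 TPM of Cd68 and the 4 males between 3.10 and 3.85 TPM, a separation of the sexes that held for 17% of all tested genes and for which no test was run. Tyrobp, the signalling adaptor DAP12 that couples Trem2 and several other receptors (ENSMUSG00000030579, chromosome 7, 30413760 to 30417585), was at 5.75 ± 1.41 TPM in WT and 18.3 ± 5.52 TPM in Col6a2-/- muscle, with a log2 change of 1.47 (SE 0.184, limma adjusted p = 1.39e-06). The same female, replicate 4, was the only Col6a2-/- library within the WT range of Tyrobp, at 6.67 TPM.

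Itgam encodes the integrin subunit CD11b of myeloid cells, and its expression was split between a pair of overlapping gene IDs on chromosome 7. The first (ENSMUSG00000030786, 128062640 to 128118491) passed the filter on low values. The second (ENSMUSG00000108596, 128062683 to 128128160, which GENCODE names Gm49368) reached 1 TPM in 1 library and was listed at 0 in 19. In Col6a2-/- males at 5 weeks, replicate 4 had 0.762 TPM under the first ID and 1.63 TPM under the second, and in 25-week Col6a2-/- females, replicates 2 and 3 had 0.587 and 0.535 TPM under the first and 0.757 and 0.933 TPM under the second. The share of each ID therefore differed from library to library. Whether this comes from the assignment of reads or from different transcripts was not tested.

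Summed over both IDs, Itgam ran from 0.629 to 1.17 TPM in WT and from 1.20 to 4.18 TPM in Col6a2-/- muscle at 5 weeks, without overlap. The first ID alone gave a log2 change of 1.02 at 5 weeks (SE 0.210, limma adjusted p = 0.00083). At 25 weeks it gave 0.57 (SE 0.210), which did not pass the test (limma adjusted p = 0.118), whereas the sum, an alternative added after the data were seen, gave 0.57 with a limma adjusted p of 0.0201.

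**Figure D2:**
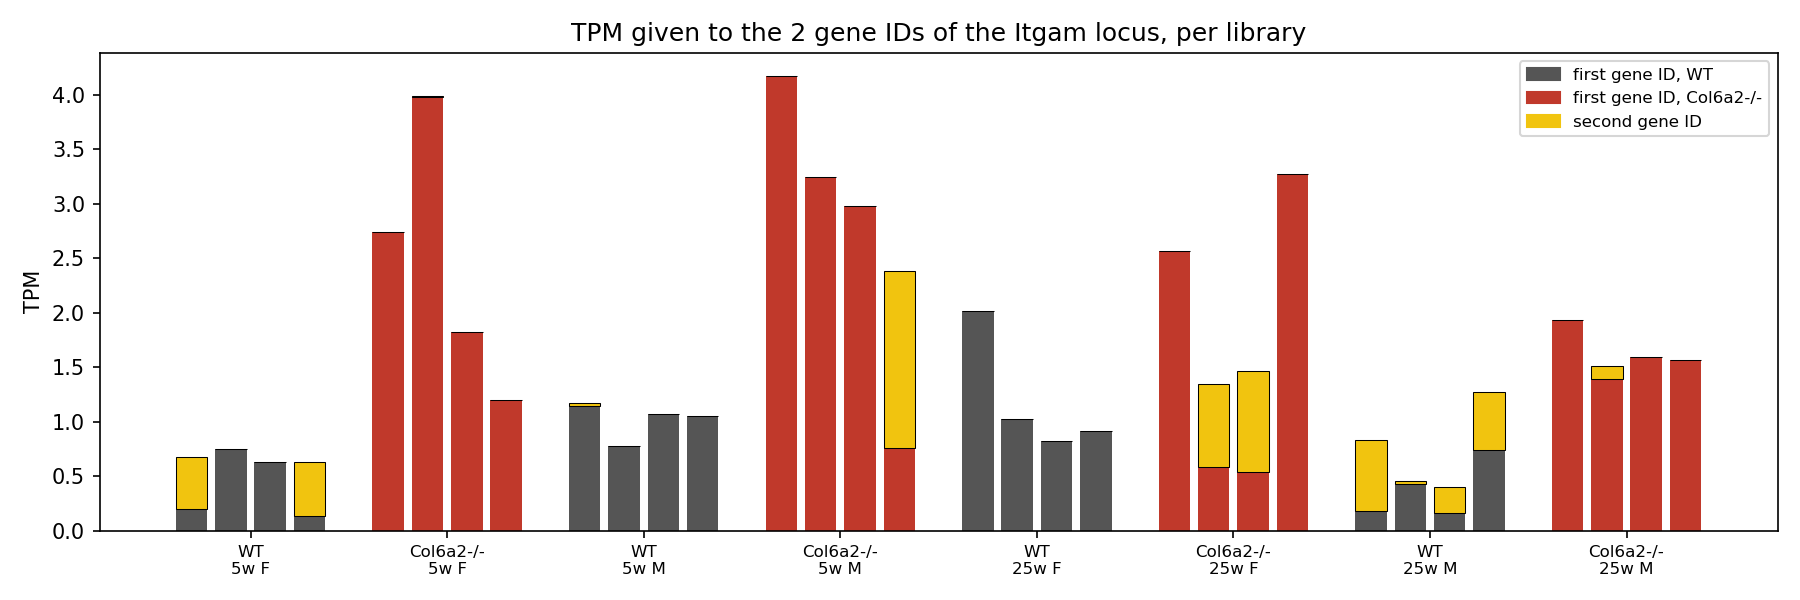
TPM of Itgam in each of the 32 libraries as stacked bars, split by gene ID (yellow, the second ID). The yellow share is 0 in 19 libraries and the larger share in a few, among them replicate 4 of the 5-week Col6a2-/- males.

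The resident markers Mrc1 and Cd163 had the smallest differences between the genotypes among the 10 at 5 weeks. Mrc1 (ENSMUSG00000026712, chromosome 2, 14229392 to 14332057) was at 12.0, 23.5, 11.2 and 6.61 TPM in Col6a2-/- females and at 19.3, 16.7, 17.1 and 12.6 TPM in Col6a2-/- males. WT females were at 7.97, 9.14, 8.61 and 8.60 TPM and WT males at 13.9, 9.05, 12.6 and 10.3 TPM. The genotypes overlapped, and 4 of 8 Col6a2-/- libraries lay above every WT library. The log2 change of 0.47 (SE 0.164) passed the test narrowly (limma adjusted p = 0.0356). It did not pass in 9 of the 32 fits that each leave out 1 library (adjusted p up to 0.112), nor with median-of-ratios scaling (0.27, adjusted p = 0.0965).

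Cd163 (ENSMUSG00000008845, chromosome 6, 124304656 to 124330527) ran from 2.09 to 4.40 TPM in WT (median 2.80 TPM) and from 3.27 to 6.94 TPM in Col6a2-/- muscle (median 5.02 TPM) at 5 weeks. The ranges overlapped, with 5 of 8 Col6a2-/- libraries above every WT library. Cd163 rose by 0.60 on the log2 scale (SE 0.135, limma adjusted p = 0.00197).

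The damage-linked markers were low in WT muscle. Trem2 (ENSMUSG00000023992, chromosome 17, 48346401 to 48354147) was at 0.0431, 0.0846, 0 and 0.0461 TPM in 5-week WT females and at 0.353, 0.108, 0.474 and 0.135 TPM in 5-week WT males. The Col6a2-/- females of that age were at 1.36, 1.70, 0.890 and 0.325 TPM and the Col6a2-/- males at 1.09, 1.16, 1.19 and 0.920 TPM. All Col6a2-/- libraries except female replicate 4 stood above every WT library, and within each sex the genotypes did not overlap. The median coverage behind these values was 0.496 reads per base in WT and 2.53 in Col6a2-/- libraries, so single WT values rest on few reads.

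The log2(TPM + 1) change of Trem2 at 5 weeks was 0.83 (SE 0.106, limma adjusted p = 1.62e-06), but Trem2 was tested only because 5-week Col6a2-/- libraries passed the filter, so this p is no support. It is on a scale that understates the change of a gene below 1 TPM. On this scale its change was smaller than that of Gpnmb, although the ratio of medians (1.13 against 0.0962 TPM) was larger. An exact permutation test of the same values over the 12870 splits of 16 libraries, added after the data were seen, gave a two-sided p of 0.000466, where the smallest possible is 0.000155, and the same selection applies to it.

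Gpnmb (ENSMUSG00000029816, chromosome 6, 49036546 to 49070929) was at 0.545, 0.696, 0.607 and 0.867 TPM in 5-week WT females and at 0.724, 0.473, 0.460 and 1.09 TPM in 5-week WT males. The Col6a2-/- females were at 2.68, 3.05, 2.10 and 1.54 TPM and the Col6a2-/- males at 2.12, 2.08, 1.84 and 2.08 TPM. Every Col6a2-/- library was above every WT library, including female replicate 4. The change was 3.20-fold between means and 0.92 on the log2 scale (SE 0.133, limma adjusted p = 1.01e-05).

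At 25 weeks, 7 of the 10 genes rose in Col6a2-/- muscle by limma, where 4.47% of all tested genes were called higher (4.7% in either direction), and the median log2 change was 0.71 against 0.082 for all tested genes. Besides Lyz2, these were Cd68 (0.86, adjusted p = 0.00377), Gpnmb (0.79, adjusted p = 0.000878), Adgre1 (0.74, adjusted p = 0.0259), Tyrobp (0.74, adjusted p = 0.0180), Csf1r (0.67, adjusted p = 0.0117) and Mrc1 (0.57, adjusted p = 0.0425). Itgam, Cd163 and Trem2 did not pass the test. Of these, Cd163 differed by 0.25 (adjusted p = 0.316) and Trem2 by 0.24 (adjusted p = 0.209). In the fits that each leave out 1 library, between 4 and 7 passed, with 4 when replicate 1 of the Col6a2-/- females or of the Col6a2-/- males was left out. The call was lost in 8 of these fits each for Mrc1 (limma adjusted p up to 0.115) and Adgre1 (up to 0.0754) and in 2 for Tyrobp (up to 0.0566). With no filter on TPM the same 3 genes lost it, which left 4 of the 10.

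**Figure D3:**
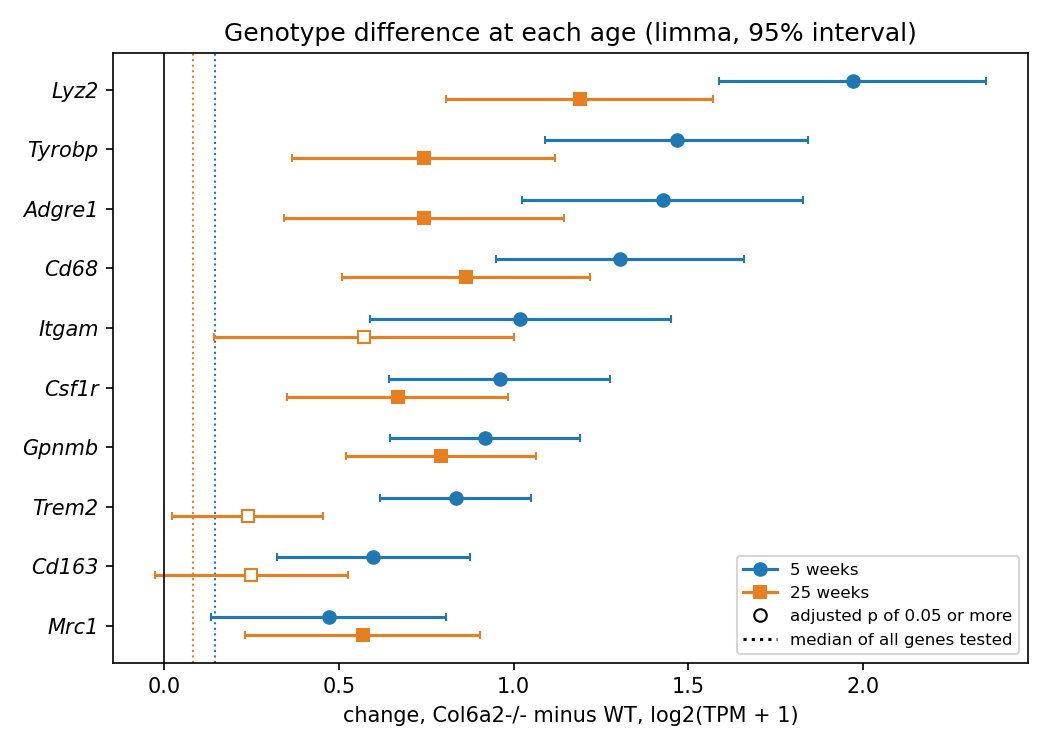
Log2 change of TPM + 1 between Col6a2-/- and WT muscle at 5 weeks (blue circles) and 25 weeks (orange squares) with 95% intervals, open symbols where the limma adjusted p is 0.05 or more, and a dotted line at the median of all tested genes. Lyz2 has the highest value at both ages, and Itgam, Cd163 and Trem2 have open symbols at 25 weeks.

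Trem2 at 25 weeks was low in every group. WT females were at 0.0494, 0.0663, 0 and 0.0731 TPM and WT males at 0.0280, 0.0277, 0.0319 and 0.0216 TPM, against 0.138, 0.0775, 0.0358 and 0.319 TPM in Col6a2-/- females and 0.795, 0.127, 0.180 and 0.255 TPM in Col6a2-/- males. Of the 8 Col6a2-/- libraries, 7 stood above every WT library, although 7 were also below any 5-week Col6a2-/- library. Because the added pseudocount of 1 TPM compresses such values, the call depended on it: with a pseudocount of 0.1 TPM the log2 change was 1.09 (limma adjusted p = 0.0336). The exact permutation test, added after the data were seen, used the log2(TPM + 1) values and so does not bear on the pseudocount. It gave an unadjusted p of 0.00109, where the unadjusted limma p on the same values was 0.0322. The median coverage of Trem2 was 0.176 reads per base in WT and 0.846 in Col6a2-/- libraries of this age.

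Gpnmb at 25 weeks was at 1.93, 1.11, 2.13 and 0.823 TPM in WT females and at 1.12, 0.941, 0.714 and 1.31 TPM in WT males. The Col6a2-/- females were at 1.88, 1.99, 2.50 and 4.74 TPM and the Col6a2-/- males at 4.12, 2.59, 3.25 and 2.44 TPM. The males did not overlap between genotypes and the females did. Mrc1 at this age ran from 2.87 to 7.19 TPM in WT and from 5.91 to 10.7 TPM in Col6a2-/- muscle, with 5 of 8 Col6a2-/- libraries above every WT library.

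The genes also differed in how they stood to one another within a library, a comparison that no rescaling of a library can change. Csf1r served as the common denominator. Per 100 TPM of Csf1r, Lyz2 was at 659 ± 63.6 TPM in WT and 1240 ± 62.1 TPM in Col6a2-/- muscle at 5 weeks (SD, n = 8). Adgre1 was at 51.7 ± 2.70 and 80.9 ± 12.7 TPM per 100 TPM of Csf1r, and Mrc1 at 190 ± 19.6 and 127 ± 11.7. All 8 Col6a2-/- libraries lay above every WT library for Lyz2, Adgre1, Tyrobp and summed Itgam relative to Csf1r, which held for 0.492% of all tested genes. For Mrc1 relative to Csf1r all 8 lay below every WT library, which held for 7.19% of all tested genes. Cd68, Cd163, Trem2 and Gpnmb overlapped between the genotypes on this measure. These ratios are descriptions without a test.

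At 25 weeks every one of these ratios to Csf1r overlapped between the genotypes (0.0156% of all tested genes had every Col6a2-/- library higher). Lyz2 was at 877 ± 101 TPM per 100 TPM of Csf1r in WT and 1165 ± 99.2 in Col6a2-/- muscle, with 7 of 8 Col6a2-/- libraries above every WT library. Mrc1 was at 123 ± 15.2 in WT and 112 ± 9.83 in Col6a2-/- muscle. Mrc1 per Csf1r in WT muscle was thus lower at 25 than at 5 weeks, while the 5-week Col6a2-/- value of 127 was near the 25-week WT value.

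The damage-linked genes were set directly against the resident genes. Per 100 TPM of Mrc1, Gpnmb ran from 3.65 to 10.6 TPM in WT (median 6.94 TPM) and from 10.7 to 23.3 TPM in Col6a2-/- muscle (median 14.7 TPM) at 5 weeks. Trem2 per 100 TPM of Mrc1 ran from 0 to 3.76 in WT and from 4.92 to 11.3 in Col6a2-/- muscle. Neither ratio overlapped between the genotypes, which held for 1.44% of all tested genes relative to Mrc1. For Trem2 the filter, passed only through 5-week Col6a2-/- libraries, favoured this separation, so it is given as values only. Trem2 and Gpnmb summed were at 6.49 ± 1.49 TPM per 100 TPM of summed Mrc1 and Cd163 in WT and at 17.1 ± 3.51 in Col6a2-/- muscle (SD, n = 8), again without overlap and with the same selection of Trem2.

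At 25 weeks Gpnmb per 100 TPM of Mrc1 had a median of 21.8 TPM in WT and 39.5 TPM in Col6a2-/- muscle, and neither it nor Trem2 per Mrc1 separated the genotypes (0.0312% of all tested genes did, with Col6a2-/- higher). The sums of the pairs stood at 16.9 ± 6.91 in WT and 27.6 ± 8.11 in Col6a2-/- muscle and overlapped, with 4 of 8 Col6a2-/- libraries above every WT library. The WT value at 25 weeks was near the Col6a2-/- value at 5 weeks. On the log2(TPM + 1) scale, the mean of Trem2 and Gpnmb minus the mean of Mrc1 and Cd163 was 0.34 higher in Col6a2-/- than in WT muscle at 5 weeks and 0.11 higher at 25 weeks. With a pseudocount of 5 TPM these differences were -0.061 and -0.047, so their sign on the log scale depends on the pseudocount while the ratios of TPM use none.

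**Figure D4:**
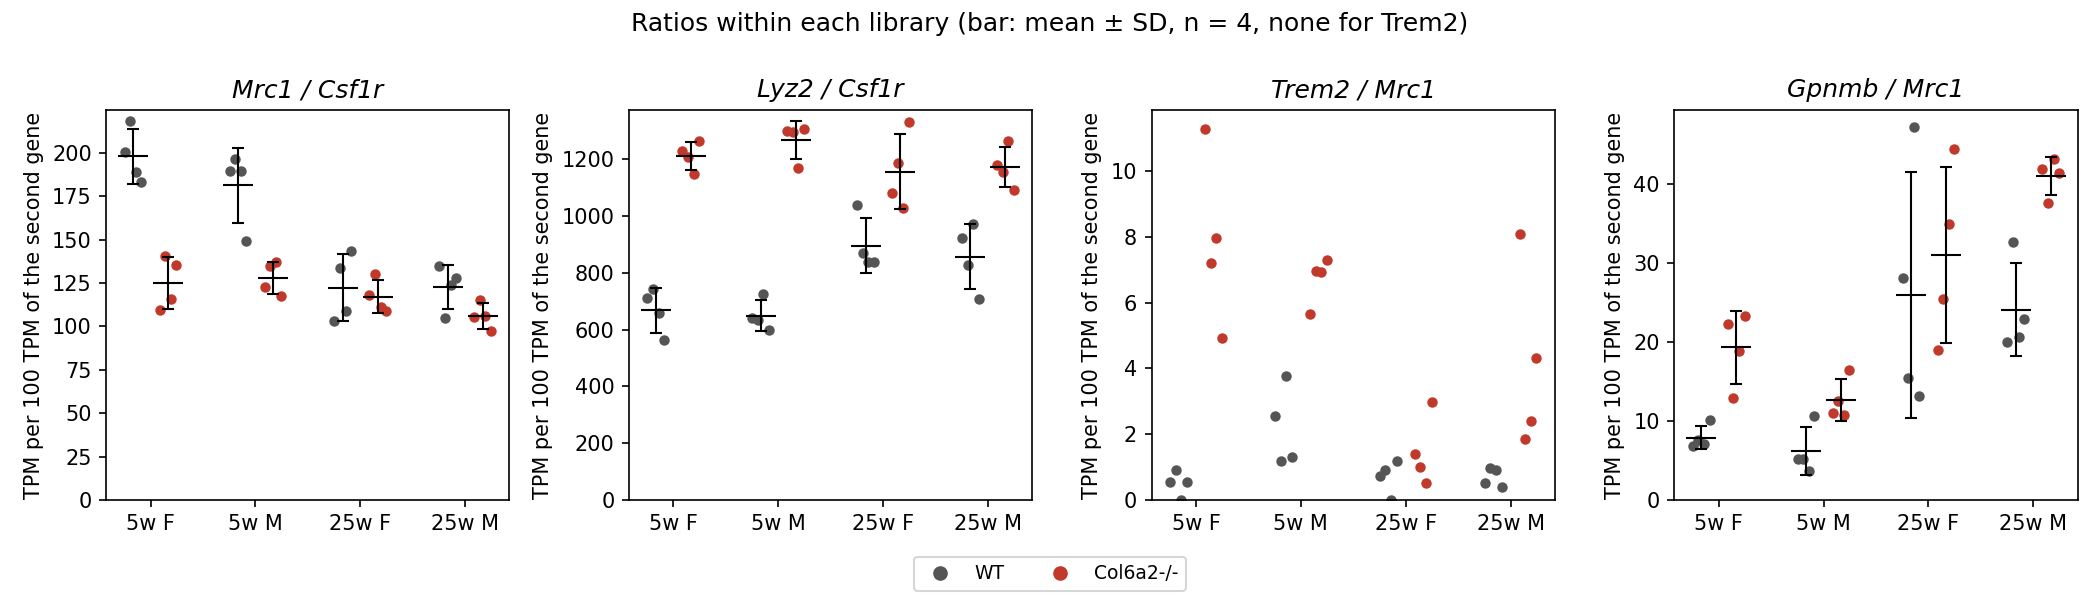
Ratios within each library, in TPM per 100 TPM of the denominator, for Mrc1 and Lyz2 over Csf1r and for Trem2 and Gpnmb over Mrc1, by group with WT in grey and Col6a2-/- in red. At 5 weeks all 4 ratios separate the genotypes, with Mrc1 over Csf1r lower and the other ratios higher in Col6a2-/- muscle (for Trem2 favoured by the filter), and at 25 weeks they overlap over both sexes together.

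The levels of Trem2 and Gpnmb were also set against each other at both ages, with no test of the difference between the genes. Trem2 was let in by the filter through the 5-week Col6a2-/- libraries, which favours high values there. Trem2 per 100 TPM of Gpnmb ran from 21.1 to 64.5 in Col6a2-/- muscle at 5 weeks (median 51.1) and from 1.43 to 19.3 at 25 weeks (median 6.13). In WT muscle the same ratio ran from 0 to 103 at 5 weeks (median 12.3) and from 0 to 8.89 at 25 weeks (median 2.75), with overlap. From 5 to 25 weeks in Col6a2-/- muscle, Trem2 fell by 0.74 on the log2 scale (limma adjusted p = 4.57e-06), while Gpnmb differed by 0.28 (adjusted p = 0.104). The selection favoured such a fall. By group mean, Gpnmb was highest in the 25-week Col6a2-/- males (3.10 TPM) and females (2.78 TPM), then in the 5-week Col6a2-/- females (2.34 TPM) and males (2.03 TPM), with all WT groups at or below 1.50 TPM. Neighbouring groups in that order overlapped. For the other 9 genes the groups with the highest means were the 5-week Col6a2-/- males and then the females.

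With age in WT muscle, 1 of the 10 genes fell and 1 rose by limma, where 15.3% of all tested genes were called lower and 4.47% higher (19.8% in either direction). Mrc1 fell by 0.83 on the log2 scale (SE 0.164, adjusted p = 0.000595), from 10.0 ± 2.12 to 5.30 ± 1.55 TPM, and every 25-week library was below every 5-week library, which held for 2.3% of all tested genes. Gpnmb rose by 0.40 (SE 0.133, adjusted p = 0.0305), from 0.683 ± 0.214 to 1.26 ± 0.513 TPM. The call for Gpnmb was lost in 8 of the fits that each leave out 1 library (limma adjusted p up to 0.0763), with no filter on TPM (0.0722) and with a pseudocount of 5 TPM (0.110). The other 8 differed by between -0.28 (Cd68) and 0.083 (Lyz2). Cd163 did not share the pattern of Mrc1, and stood at 29.3 ± 4.99 TPM per 100 TPM of Mrc1 at 5 weeks and 52.2 ± 7.58 at 25 weeks in WT muscle.

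With age in Col6a2-/- muscle, 8 of the 10 genes fell by limma, where 28.8% of all tested genes were called lower (5.41% higher, 34.2% in either direction). Without Trem2, which the filter had selected through the 5-week Col6a2-/- libraries, 7 of 9 fell. These were Adgre1 (-0.91), Tyrobp (-0.83), Mrc1 (-0.73), Cd68 (-0.72), Lyz2 (-0.70), Csf1r (-0.56) and Cd163 (-0.43). Gpnmb and Itgam (-0.42, adjusted p = 0.122) did not pass the test. The comparisons of age and of genotype share their libraries, and mice of different ages are different animals.

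The test of whether the genotype difference itself changed with age called none of the 10 genes, where 0.492% of all tested genes were called. Of the 10, 4 (Lyz2, Tyrobp, Adgre1 and Trem2) reached an unadjusted p under 0.05, as did 898 of all tested genes. The differences were -0.78 for Lyz2 (adjusted p = 0.328), -0.72 for Tyrobp (adjusted p = 0.405), -0.68 for Adgre1 (adjusted p = 0.529) and -0.60 for Trem2 (SE 0.150, adjusted p = 0.0740), and were near 0 for Gpnmb (-0.12, adjusted p = 0.965) and Mrc1 (0.098, adjusted p = 0.986). The selection of Trem2 through the 5-week Col6a2-/- libraries favoured a negative difference for it. Leaving out replicate 4 of the 5-week Col6a2-/- females changed the calls. Lyz2 (-0.93, adjusted p = 0.0294), Tyrobp (-0.91, adjusted p = 0.0147), Adgre1 (-0.86, adjusted p = 0.0490) and Trem2 (-0.69, adjusted p = 0.00138) were then called by limma, together with 229 genes in all in place of 63. Leaving out replicate 1 of the 25-week Col6a2-/- males called Trem2 (-0.67, adjusted p = 0.0141).

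Within the sexes, 9 of the 10 genes rose in 5-week Col6a2-/- females by limma, where 12.3% of all tested genes were called higher (12.9% in either direction), and 7 rose in 5-week Col6a2-/- males, where 4.55% were called higher (5.03% in either direction). Without Trem2, whose place in these counts the filter favoured, they were 8 of 9 in females and 6 of 9 in males. The exception in females was Mrc1 (0.45, adjusted p = 0.191). Every Col6a2-/- library was above every WT library of the same sex for 9 of the 10 genes in the 5-week females (8.53% of all tested genes) and for 7 in the 5-week males (9.32%), Trem2 included. The exceptions to the calls in males were Mrc1 (0.49, adjusted p = 0.241), Cd163 (0.60, adjusted p = 0.0647) and Itgam (0.81, adjusted p = 0.115). At 25 weeks, limma called none in females, where 0.0078% of all tested genes were called. There 5 of the 10 and 621 of all tested genes reached an unadjusted p under 0.05, and Lyz2 differed there by 0.93 (adjusted p = 0.447).

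In 25-week males, 5 of the 10 genes rose by limma, where 2.91% of all tested genes were called higher (3.03% in either direction). They were Lyz2 (1.45), Cd68 (1.19), Tyrobp (1.02), Gpnmb (1.01) and Csf1r (0.84). Leaving out 1 library moved this count to between 2 and 8: 2 without replicate 1 of the Col6a2-/- males of that age, 3 without their replicate 3 or replicate 2 or 3 of the WT males, and 8 without replicate 2 or 4 of the 5-week Col6a2-/- females. No filter on TPM or a pseudocount of 5 TPM gave 3, and a pseudocount of 0.1 TPM or array weights gave 8. All of the 10 except Cd163 had every Col6a2-/- male above every WT male, which held for 13.9% of all tested genes, and none did so in the females, where it held for 3.8%. With both sexes together none of the 10 separated the genotypes at 25 weeks (0.663% of all tested genes did). The difference between the sexes itself passed the test for none of the 10 genes at either age (limma adjusted p of 1 at 5 weeks and from 0.991 to 0.994 at 25 weeks), where limma called 0% and 0.0156% of all tested genes and 253 and 432 reached an unadjusted p under 0.05, none of the 10 among them.

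Some single mice stood at the end of their group for all the genes, but not in every group. Among the 5-week WT females, no mouse was highest or lowest for more than 4 of the 10. Among the 5-week Col6a2-/- females, replicate 2 was the highest and replicate 4 the lowest of the 4 for 10 of 10 genes, and among the 25-week Col6a2-/- males replicate 1 was the highest for 10 of 10. Pan-leukocyte genes (12 genes, among them Ptprc) summed to 69.0, 102, 51.5 and 27.4 TPM in those females, in the order of the replicates, and fibroblast genes (9 genes, among them Col3a1) to 1218, 1913, 1061 and 557 TPM. Muscle fibre genes summed to 26716, 36992, 21944 and 27729 TPM there and did not follow that order. Replicate 4 had a coverage to FPKM ratio of 13.69 and 10903 genes at or above 1 TPM, and replicate 2 a ratio of 7.447 and 12877 genes. The part of depth and of other cell types in the level of the macrophage genes was not tested.

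Between pairs of the 10 genes, Pearson's r of log2(TPM + 1) over the 32 libraries had a median of 0.839 (45 pairs, 0.248 to 0.979), and after subtraction of the group means a median of 0.727. The libraries share groups and scaling, so these values are descriptions. By the same measure over the 32 libraries, the genes closest to the mean of the 10 were Nckap1l (0.991), Laptm5 (0.983), C1qa (0.981), Fcer1g (0.980) and C1qb (0.979). Those closest to Trem2 were Galns (0.955), Mt3 (0.950), Ms4a7 (0.948), Ifitm3 (0.945) and Cd300c2 (0.945), and those closest to Gpnmb were Atp9a (0.937), Mustn1 (0.881), Ecm1 (0.876), Mroh1 (0.870) and Lyz1 (0.854).

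The resident pair had different nearest genes. For Mrc1 they were Snx2 (0.970), Tcaf1 (0.963), Ppib (0.956), Rsu1 (0.956) and Prdx4 (0.953), and for Cd163 they were Ifi204 (0.897), Ccl8 (0.888), Mnda (0.884), Sh3d19 (0.879) and Tmem176b (0.877). With the group means subtracted, Snx2 (0.943), F13a1 (0.941), Thyn1 (0.938), Rps7 (0.936) and Cd209f (0.932) were closest to Mrc1. F13a1 and Cd209f are themselves used as markers of resident macrophages. By this same measure Cd163 was closest to Ifi204 (0.886), Ccl8 (0.834), Egfr (0.823), Mnda (0.816) and Eps8 (0.802), none of them on the resident list below. Trem2 was closest to Emp3 (0.885), Rcn1 (0.869), Galns (0.863), C1qc (0.861) and Lyl1 (0.857). Gpnmb was closest to Atp9a (0.778), Rps10-ps2 (0.776), Klhdc8b (0.775), Clec4b1 (0.772) and Alyref (0.763). The mean of the 10 was closest to Nckap1l (0.974), C1qb (0.949), C1qa (0.947), Ctss (0.942) and Ly86 (0.941).

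Further macrophage genes were counted in lists, in which only genes past the filter on low values were tested, a filter that favours genes high in at least 1 group. Some lay far above Csf1r (median 6.26 TPM over the libraries), among them Ctsd (160), Fabp4 (141), Cd36 (113) and Selenop (86.8 TPM). The part of other cell types in their levels was not tested. Siglec1, Itgax, Csf2ra, Ms4a4c and Plac8, named in these lists, reached 1 TPM in fewer than 4 of the 16 WT libraries, so they were tested through Col6a2-/- libraries and their p-values are no support. Of 17 tested damage-linked genes, 15 rose in 5-week Col6a2-/- muscle by limma (median log2 change 0.60), and of 18 tested resident genes, 9 rose (median 0.43), against 23.2% called higher and a median of 0.15 over all tested genes. Among genes that pass the filter on WT libraries alone, 12 of 14 and 8 of 17 rose. Lgals3, the secreted lectin galectin-3, rose by 2.96 on the log2 scale (adjusted p = 9.86e-13), Itgax, the integrin subunit CD11c, by 1.05 (adjusted p = 1.68e-08) and Lgmn, a lysosomal protease, by 1.27 (adjusted p = 1.03e-07). Among resident genes, Siglec1, the sialic acid receptor CD169, rose by 0.71 (adjusted p = 0.000549), Stab1, a scavenger receptor, by 0.77 (adjusted p = 0.000803) and Selenop, a selenium carrier, by 0.51 (adjusted p = 0.00369).

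At 25 weeks, 7 of the 17 damage-linked genes (median 0.43) and 5 of the 18 resident genes (median 0.37) rose by limma, against 4.47% called higher and a median of 0.082 over all tested genes (5 of 14 and 5 of 17 among those that pass on WT libraries alone). Lgals3 rose by 1.38 (adjusted p = 7.22e-05), Itgax by 0.67 (adjusted p = 0.00031) and the tetraspanin gene Cd9 by 0.65 (adjusted p = 0.00361). Among resident genes, the hyaluronan receptor gene Lyve1, also a marker of lymphatic endothelium and on the endothelial list, rose by 0.57 (adjusted p = 0.00125), Stab1 by 0.67 (adjusted p = 0.0134) and the lectin gene Mgl2 by 0.78 (adjusted p = 0.0145). Lyve1 had differed by 0.0099 at 5 weeks (adjusted p = 0.951).

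Of 15 tested genes of TREM2 and colony-stimulating factor signalling, 10 rose at 5 weeks (median log2 change 0.52) and 3 at 25 weeks (median 0.29) by limma, where 23.2% and 4.47% of all tested genes were called higher. Among the 11 that pass on WT libraries alone, 6 and 2 rose. At 5 weeks they included Fcer1g, an adaptor akin to Tyrobp (1.31, adjusted p = 3.1e-06), Csf2ra, the GM-CSF receptor subunit (0.88, adjusted p = 3.1e-06) and Syk, the kinase recruited by both adaptors (0.68, adjusted p = 9.12e-06). The same genes rose at 25 weeks, Syk by 0.44 (adjusted p = 0.00862), Fcer1g by 0.75 (adjusted p = 0.0122) and Csf2ra by 0.45 (adjusted p = 0.0219).

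Pan-leukocyte genes, which also mark macrophages, and monocyte genes moved in part with the 10 genes. Of all tested genes, 23.2% were called higher at 5 weeks and 4.47% at 25 weeks. A rise of pan-leukocyte genes does not tell other leukocytes from macrophages. Pan-leukocyte genes rose at 5 weeks in 12 of 12 cases (median 1.12) and at 25 weeks in 7 of 12 (median 0.60), with Cd52 at 1.80 (limma adjusted p = 3.1e-07), Itgb2 at 1.23 (adjusted p = 4.31e-07) and Ptprc at 1.52 (adjusted p = 1.43e-06) at 5 weeks. Of 10 tested monocyte genes, 8 rose at 5 weeks (median 0.84) and 2 at 25 weeks (median 0.37), with the chemokine receptor gene Ccr2 at 1.61 (adjusted p = 1.24e-06), Ms4a4c at 0.92 (adjusted p = 5.23e-06) and Plac8 at 1.04 (adjusted p = 2.21e-05) at 5 weeks. Among genes that pass on WT libraries alone, 10 of 10 pan-leukocyte and 4 of 6 monocyte genes rose at 5 weeks, and 6 of 10 and 2 of 6 at 25 weeks. Summed monocyte genes ran from 41.9 to 92.2 TPM in WT and from 66.3 to 200.3 TPM in Col6a2-/- muscle at 5 weeks. Lyz2, Tyrobp and Itgam are also expressed by monocytes, and the part of monocytes in their rise was not tested.

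Neutrophil, T and NK cell genes were low. Over all tested genes, limma called 25.4% at 5 weeks and 4.7% at 25 weeks, and 4961 and 2469 reached an unadjusted p under 0.05. In lists of so few tested genes, 0 calls at 25 weeks are near that share. Of 12 neutrophil genes, 3 were tested and limma called none at either age (1 had an unadjusted p under 0.05 at each age). The sum of the 12 ran from 0.670 to 2.05 TPM in WT and from 0.547 to 5.37 TPM in Col6a2-/- muscle at 5 weeks, with Ly6g listed at 0 in every library. All 12 genes of T and NK cells were below 1 TPM in every library, with a highest value of 0.856 TPM, and none was tested. Their sum ran from 0.097 to 0.561 TPM in WT (median 0.297 TPM) and from 0.541 to 3.50 TPM in Col6a2-/- muscle (median 1.77 TPM) at 5 weeks, so it was higher where the macrophage genes were higher, and its part in the result was not tested. Of the 7 B cell genes, 1 was tested (Ighm), and it was not called by limma at either age and had no unadjusted p under 0.05. Dendritic cell genes had 2 tested members, of which Zbtb46 rose at 5 weeks (0.30, limma adjusted p = 0.0342). Zbtb46 ran from 1.14 to 3.25 TPM over the libraries, whereas 6 of the 8 dendritic cell genes were below 1 TPM in every library. The part of other cell types in the level of Zbtb46 was not tested. None of the 5 tested mast cell genes was called at 5 weeks (25.4% of all tested genes were) or at 25 weeks (4.7%). None of these 5 had an unadjusted p under 0.05.

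Fibroblast genes rose in 5 of 9 cases at 5 weeks (median 0.32) and 4 of 9 at 25 weeks (median 0.51), where 23.2% and 4.47% of all tested genes were called higher, with the collagen III gene Col3a1 at 1.04 (limma adjusted p = 0.00106) and 1.25 (adjusted p = 0.00125). Their sum ran from 608 to 1457 TPM in WT and from 557 to 1963 TPM in Col6a2-/- muscle at 5 weeks. Of 8 muscle fibre genes, 4 fell at 5 weeks, where 2.14% of all tested genes were called lower, among them Tnnt3 (-0.32, adjusted p = 0.00617), Ckm (-0.33, adjusted p = 0.0103) and Pvalb (-0.51, adjusted p = 0.0161). Of 8 endothelial genes, 3 rose and 1 fell at 5 weeks (median 0.14). At 25 weeks Lyve1 rose and Stab2 fell (-0.34, limma adjusted p = 0.0194), with a list median of 0.12, where 0.234% of all tested genes were called lower. Stab2 reached 1 TPM in 4 WT libraries and 1 Col6a2-/- library of 25 weeks and in no 5-week library. It thus passed the filter mainly through 25-week WT libraries, which favoured this fall, so its p is no support. The part of these cell types in the macrophage result was not tested. Since TPM is a share of all transcripts in a library, the choice of scaling matters for small changes: with median-of-ratios scaling, 1490 genes were called higher and 1622 lower at 5 weeks in place of 2979 and 274, and 9 of the 10 macrophage genes stayed called higher, all but Mrc1.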

How the data were processed

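RNA-seq libraries of quadriceps muscle from 32 mice, labelled as separate animals, were compared in 8 groups of 4. Per the labels' protocols, total RNA of integrity number at least 8 was made into TruSeq libraries and sequenced as paired ends. Per the submitters' processing notes, FastQC, MultiQC, Trimmomatic, HISAT2, SAMtools and StringTie were used with GRCm38 (mm10); their versions, the gene annotation and any use of strand are not given in the sources used here. Per the file headers, the authors deposited coverage, FPKM and TPM per gene. TPM was used for all levels and tests, deposited FPKM for 1 alternative and for the depth ratio, and deposited coverage as the depth behind a value.

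From these, TPM was summed per gene ID, and IDs that reached 1 TPM or more in 4 or more libraries (12817 of 53801) were tested on log2(TPM + 1). A model with 8 group means and 24 residual degrees of freedom was fitted in limma 3.58.1 (eBayes with trend, R 4.3.3), with 11 contrasts, both sexes weighted equally, two-sided p-values adjusted by Benjamini-Hochberg over all tested genes and a threshold of 0.05. Reads were not counted, so no count model was used. On data simulated for the 5-week genotype comparison (12817 genes), 98% of changes of 1 and 81% of changes of 0.5 on the log2 scale were recovered, with 3.76% false among those called. The simulation changed 200 genes, equally up and down, with normal noise independent between genes. In the data 3253 genes were called, 2979 of them higher, and genes were correlated. These rates are therefore not error rates of the calls reported here. The 10 genes and the gene lists were chosen with earlier results of these data known. All 10 genes are named; from each list up to 3 called genes with the smallest adjusted p per age are named, and for likeness the 5 genes with the highest Pearson's r. Alternatives were other pseudocounts, filters and scalings, FPKM, array weights, a fit per age, the replicate number as a block, a sum of both Itgam IDs and leaving out each library in turn. Promoter windows came from a RefSeq table on GRCm38.p6.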

Additional observations from a re-analysis of the deposited data

Results flagged for a closer look

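In groups of 4 libraries, the highest or lowest value was set against the rest by the ratio of its gap to the whole range (Dixon's test). The ratio passed the 95% critical value in 5 of 88 groups, and chance alone gives about 1 in 20. Cd68 was at 7.80 TPM in replicate 1 of the 25-week Col6a2-/- males, where the other mice were between 3.05 and 3.66 TPM. Itgam was at 2.02 TPM in replicate 1 of the 25-week WT females, for the first gene ID and for the sum of both, where the others were between 0.825 and 1.02 TPM. Gpnmb was at 1.84 TPM in replicate 3 of the 5-week Col6a2-/- males, where the others were between 2.08 and 2.12 TPM. Tyrobp was at 3.35 TPM in replicate 3 of the 25-week WT males, where the others were between 4.44 and 4.63 TPM. The summed pan-leukocyte genes were also highest in 2 of these libraries, at 55.6 TPM in the Col6a2-/- male (others 29.2 to 36.8) and 43.2 TPM in the WT female (others 18.8 to 25.9). The part of leukocyte content in these values was not tested.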

How the results depend on the processing

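Leaving out 1 library at a time, the genotype comparisons called 9 to 10 of the 10 macrophage genes at 5 weeks (2207 to 4749 genes in all), 4 to 7 at 25 weeks (270 to 983), 7 to 10 in females at 5 weeks (455 to 3865), 6 to 8 in males at 5 weeks (313 to 1003), 0 in females at 25 weeks (1 to 5), 2 to 8 in males at 25 weeks (55 to 816) and 0 to 4 for genotype by age (49 to 229). Genotype by sex gave 0 to 1 genes at 5 weeks and 0 to 2 at 25 weeks, and age gave 1 to 2 of the 10 in WT (2114 to 3004) and 8 to 9 in Col6a2-/- muscle (3464 to 5506). A filter at 5 TPM gave 1553 genes at 5 weeks, 344 at 25 weeks, 722 in females at 5 weeks, 295 in males at 5 weeks, 251 in males at 25 weeks, 32 for genotype by age, 1441 for age in WT (1 of the 10) and 2263 for age in Col6a2-/- muscle. No filter gave 343 genes at 25 weeks (4 of the 10), 4 in females at 25 weeks, 133 in males at 25 weeks (3 of the 10), 115 for genotype by age, 5 and 1 for genotype by sex at 5 and 25 weeks, and 1 of the 10 for age in WT. A pseudocount of 5 TPM gave 317 genes at 25 weeks, 2 in females at 25 weeks, 125 in males at 25 weeks (3 of the 10) and 1 of the 10 for age in WT; a pseudocount of 0.1 TPM gave 2 genes in females at 25 weeks and 736 in males at 25 weeks (8 of the 10). The damage-linked minus resident difference was 1.33 and 0.65 with a pseudocount of 0.1 TPM and reversed to -0.061 and -0.047 with 5 TPM, at 5 and 25 weeks. Median-of-ratios scaling gave 1384 genes at 25 weeks (712 higher, 672 lower), 1098 in males at 5 weeks, 11 in females at 25 weeks, 867 in males at 25 weeks, 127 for genotype by age (1 of the 10) and 1 for genotype by sex at 25 weeks. Quantile normalisation gave 1151 genes in males at 5 weeks, 4 in females at 25 weeks, 163 for genotype by age (1 of the 10) and 1 for genotype by sex at 25 weeks. Rescaling without mitochondrial and Rn7s genes gave 1012 genes in females at 5 weeks, 1446 in males at 5 weeks, 3 in females at 25 weeks and 103 for genotype by age. Array weights gave 1967 genes at 25 weeks, 2879 in females at 5 weeks, 1176 in males at 5 weeks, 33 in females at 25 weeks, 2437 in males at 25 weeks (8 of the 10), 241 for genotype by age (2 of the 10), 0 for genotype by sex at 25 weeks and 4166 for age in WT. A fit per age gave 1907 genes at 5 weeks and 1177 at 25 weeks, and FPKM gave 2 in females at 25 weeks. The sign reversed for small uncalled differences of genotype by age, in Mrc1 (-0.0057) and Gpnmb (0.00025) with a pseudocount of 5 TPM and in Mrc1 without replicate 4 of the 5-week Col6a2-/- females (-0.033; up to 0.25 without replicate 2). It also reversed for age in WT, in Cd163 (0.0074 with median-of-ratios scaling, 0.021 rescaled, 0.025 with quantiles), Tyrobp (0.0075 rescaled), Itgam (below 0 with any of 5 libraries left out; range -0.054 to 0.080) and Lyz2 (-0.017 without replicate 1 of the 25-week WT females; up to 0.14), and for Itgam in females at 25 weeks (-0.065 without replicate 4 of the Col6a2-/- group; up to 0.43). The labels name no shared litter or day, and only 8 of 16 pairs of same-numbered mice correlated over r = 0.1 (-0.061 to 0.234), so the numbers were not taken as pairs, although 17 of 32 libraries were closest to their own number, a hint from the data; the replicate block gave 3293 genes and 10 of the 10 at 5 weeks, 2 genes in females at 25 weeks, and changed the number of the 10 called in no comparison. The causes of these shifts were not tested, and Trem2, Gpnmb and Itgam are limited by coverage in WT muscle.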

Other observations

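Relative to Csf1r on the log2(TPM + 1) scale, the Col6a2-/- minus WT difference at 5 weeks was 1.01 for Lyz2, 0.51 for Tyrobp, 0.47 for Adgre1, 0.34 for Cd68 and 0.059 for the first Itgam ID, and was -0.044 for Gpnmb, -0.13 for Trem2, -0.36 for Cd163 and -0.49 for Mrc1. At 25 weeks these differences were 0.52 for Lyz2, 0.074 for Tyrobp, 0.076 for Adgre1, 0.20 for Cd68, -0.097 for Itgam, 0.12 for Gpnmb, -0.43 for Trem2, -0.42 for Cd163 and -0.10 for Mrc1. Trem2 and Gpnmb lie near or below 1 TPM in many libraries, where this difference depends on the pseudocount. Per 100 TPM of Csf1r, with no pseudocount, mean Trem2 was 2.54 in WT and 9.10 in Col6a2-/- muscle at 5 weeks. At 25 weeks it was 0.872 and 3.02. Gpnmb was 13.1 and 20.0 at 5 weeks, so its sign there and that of Trem2 at both ages turned. Summed Itgam was 15.8 and 23.9 at 5 weeks and 21.3 and 25.4 at 25 weeks. Mrc1 and Cd163 stayed lower at both ages. The filter favoured high Trem2 at 5 weeks.

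Ighm, an immunoglobulin heavy chain gene, reached 113 TPM in 1 library, while 5 of the 7 B cell genes were below 1 TPM in every library. None of the 5 erythrocyte genes was called by limma at 5 weeks (25.4% of all tested genes were) or at 25 weeks (4.7%). None of the 5 had an unadjusted p under 0.05, against 4961 and 2469 of all tested genes.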
